A study of Mus musculus with 8 samples.

Results

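The genes described here are 9 genes of type 2 (TH2) immunity and of T cell help to B cells: the cytokine genes Il4, Il5, Il13, Il9 and Il21, the ligand gene Cd40lg, the receptor gene Il4ra, and the transcription factor genes Stat6 and Gata3. They were chosen by name for their part in IgE and germinal centre responses after oral peanut with cholera toxin. All 9 had a row among the 24421 genes of the deposited count table. Of these, 6 passed the filter on low counts, which kept 12363 genes, and Il5, Il13 and Il9 did not.

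The libraries were made from follicular regulatory T (TFR) cells of mouse spleen. TFR cells are T cells that express Foxp3, enter the B cell follicle and restrain germinal centre reactions. The study sorted them from magnetically enriched CD4+ cells by a Foxp3-linked YFP signal, CXCR5 and PD1. There were 4 libraries of wildtype (WT) mice and 4 of mice labelled Blimp1-flox Foxp3-cre, called Blimp1-flox here. Mice of both groups were challenged by mouth 2 times with peanut plus cholera toxin, a mucosal adjuvant, and the cells were taken 36 days later. Foxp3-cre acts in every cell that expresses Foxp3, so the deletion is not limited to TFR cells. Whether the WT mice also carried Foxp3-cre, the number of floxed alleles, and the age of the mice are not given in the sources used here. Nor is it given whether each library stands for a mouse of its own, so the p-values measure only the spread between these libraries, which may be technical.

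IL-4 binds a receptor whose specific chain is encoded by Il4ra and which signals through JAK kinases to STAT6. In helper T cells STAT6 raises GATA3, the factor that opens the linked Il4, Il13 and Il5 genes. IL-4 and CD40 ligand together direct B cells to switch to IgE and IgG1, and IL-21 drives germinal centre B cells and plasma cell formation. TFR cells are known for limiting these signals. Blimp1, encoded by Prdm1, is a transcriptional repressor of effector T cells and plasma cells.

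Library totals ranged from 16425538 to 27595939 counts, and log2 levels correlated between libraries with Pearson r from 0.954 to 0.987 across genes. The summed level of 8 TFR markers, led by Pdcd1 and Ctla4, was 3300 to 3980 CPM (counts scaled by TMM to a common library size) in WT and 3400 to 4120 CPM in Blimp1-flox libraries, and all 8 markers passed the filter. Foxp3 itself was at 84.4, 105, 86.0 and 72.5 CPM in WT libraries, against 55.7, 67.5, 75.5 and 65.0 CPM in Blimp1-flox libraries (edgeR adjusted p = 0.176). Of these markers, Il2ra, the alpha chain of the IL-2 receptor, was called lower in Blimp1-flox libraries. Prdm1 was at 31.8 to 71.0 CPM in WT and at 7.53 to 16.6 CPM in Blimp1-flox libraries, and fell by 2.14 ± 0.31 (SE) on the log2 scale (edgeR adjusted p = 0.0203). The Prdm1 call was lost without a filter (adjusted p = 0.0502), without Blimp1-flox 1 (0.103), without Blimp1-flox 1 and 4 (0.0942) and with a B cell score (-1.57, adjusted p = 0.811), and its direction held under all 21 alternatives. B cell transcripts were uneven: 14 markers summed to 2390 CPM in WT 4 and to 550 to 976 CPM in the other libraries. Eosinophil transcripts summed to 140 CPM in Blimp1-flox 4 and to 0.18 to 12.7 CPM in the others. The 6 CD8 T and NK cell markers summed to 28.4 to 44.8 CPM in WT and to 48.7 to 51.2 CPM in Blimp1-flox libraries, mainly through Klrb1c (13.5 to 26.6 and 30.7 to 37.4 CPM). In the same list Cd8b1 overlapped, Prf1 was lower in every Blimp1-flox library (0.778 to 1.33 and 0.18 to 0.665 CPM), and Cd8a and Ncr1 had at most 8 and 3 counts in a library. Exocrine pancreas transcripts, from an organ beside the spleen, split the libraries at the widest gap in their summed log2 CPM. The higher set was WT 2, WT 4 and Blimp1-flox 1, 2 and 3, and the lower set WT 1, WT 3 and Blimp1-flox 4. Blimp1-flox 1 (-10.3) lay between the rest of the higher set (3.7 to 20.2) and the lower set (-38.4 to -35.1). By summed CPM the sets overlapped, with WT 4 at 47 and Blimp1-flox 4 at 51.8. Cela1, the most abundant marker, was at 27.5 to 34.3 CPM in WT and 39.7 to 67.3 CPM in Blimp1-flox libraries. Prss2 was also higher in every Blimp1-flox library, and the other detected markers overlapped, so the signal partly followed genotype.

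The promoter sequences of Il4ra, Il4 and Il13 are shown because Il4ra was the member that changed and because Il4 and Il13 are linked genes with very different transcript levels. Each is the 250 bases before a RefSeq transcription start (GRCm38.p6, the assembly of mm10), 5′ to 3′ on the gene's own strand. RefSeq promoters matched 8 of the 9 members, all but Cd40lg. The Il4ra stretch is chr7:125552021-125552270 on the plus strand, and its RefSeq start lies 11 bases before the start of the counted gene model. The Il4 and Il13 stretches are chr11:53618666-53618915 and chr11:53634703-53634952, both on the minus strand. Capitals mark the one match that each held to the 4 motifs searched.
Il4ra: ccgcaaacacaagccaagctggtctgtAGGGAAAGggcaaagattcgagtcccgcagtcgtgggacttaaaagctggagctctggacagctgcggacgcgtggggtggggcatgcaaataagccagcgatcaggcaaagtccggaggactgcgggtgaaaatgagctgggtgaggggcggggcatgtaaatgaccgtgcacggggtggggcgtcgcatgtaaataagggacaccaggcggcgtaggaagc
Il4: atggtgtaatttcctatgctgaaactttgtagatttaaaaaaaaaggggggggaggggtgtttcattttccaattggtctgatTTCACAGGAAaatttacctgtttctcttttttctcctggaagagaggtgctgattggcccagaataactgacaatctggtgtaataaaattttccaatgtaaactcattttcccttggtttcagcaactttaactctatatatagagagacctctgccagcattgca
Il13: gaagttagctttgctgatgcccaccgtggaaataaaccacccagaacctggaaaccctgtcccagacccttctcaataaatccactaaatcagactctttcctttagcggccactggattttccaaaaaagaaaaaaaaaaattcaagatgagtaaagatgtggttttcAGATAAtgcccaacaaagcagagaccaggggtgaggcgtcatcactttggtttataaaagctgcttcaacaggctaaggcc

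The motifs, searched on both strands, were a STAT6-type TTCNNNNGAA, a STAT5-type TTCNNNGAA, a Blimp1-type AGNGAAAG and a GATA-type AGATAA. The Il4ra stretch held the Blimp1-type AGGGAAAG at 223 bases before the start, the Il4 stretch the STAT6-type TTCACAGGAA at 167 bases, and the Il13 stretch the GATA-type AGATAA at 81 bases. Among the other members, the Stat6 promoter held a Blimp1-type match on its reverse strand at 50 bases and the Il9 promoter a STAT6-type match at 184 bases. The windows of Il21, Il5, Gata3 and a second Il4 start 1327 bases downstream held no match. No match overlapped one of another motif. Of 32851 mouse promoter windows of this length, 5.85% held the STAT6-type, 7.02% the STAT5-type, 7.30% the Blimp1-type and 9.99% the GATA-type motif. These matches describe letters only and are not evidence of binding.

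In Blimp1-flox TFR cells, the transcript of the IL-4 receptor chain Il4ra fell by 33.7%, while the other 5 tested members did not pass the test. Genes count as called where the adjusted p was under 0.05 in edgeR's quasi-likelihood test, adjusted by Benjamini-Hochberg over all 12363 tested genes. Of the 6 tested members 1 was called (Il4ra, lower), where 0.501% of all tested genes were called, 0.243% lower and 0.259% higher. The 4 libraries of each genotype did not overlap for 1 member, again Il4ra, where 8.47% of all tested genes did not overlap. The log2 fold change, Blimp1-flox relative to WT, was positive for 4 tested members and negative for 2, and its median was 0.07, against 0.0012 over all tested genes. In bulk RNA, fewer cells of a type and less RNA per cell cannot be told apart.

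**Figure D1:**
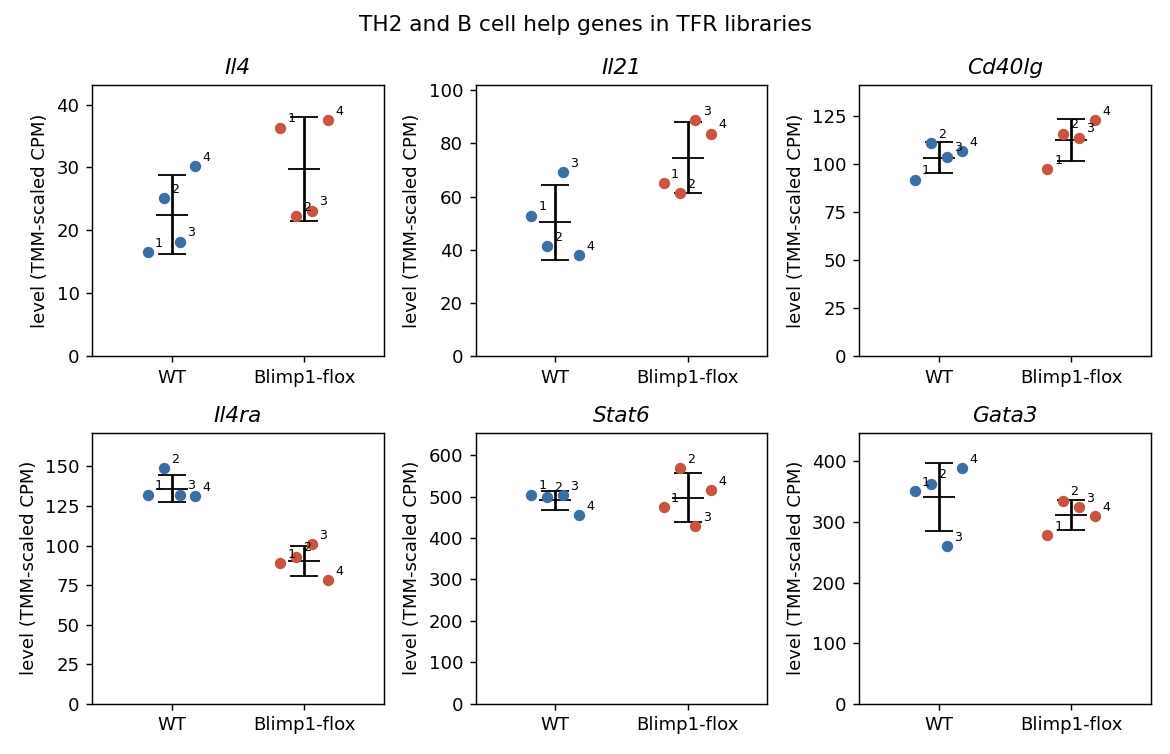
TMM-scaled CPM (vertical axis, starting at 0) of the 6 tested members in each of 4 WT and 4 Blimp1-flox libraries; points are libraries with their replicate number, and bars are the mean and SD. The Il4ra libraries separate, at 131 to 149 CPM in WT and 78.2 to 101 CPM in Blimp1-flox, and the other 5 members overlap.

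Il4ra encodes the ligand-binding chain shared by the IL-4 and IL-13 receptors and lies on chromosome 7 from 125552282 to 125579474 (mm10, 11 exon blocks). It was measured at 132, 149, 132 and 131 CPM in WT 1 to 4 and at 88.8, 92.8, 101 and 78.2 CPM in Blimp1-flox 1 to 4. Every Blimp1-flox library lay below every WT library, and the gap between the groups was wider than the spread within either. The mean was 136 ± 8.48 CPM in WT and 90.1 ± 9.36 CPM in Blimp1-flox cells (SD, n = 4), a fall of 0.59 ± 0.10 (SE) on the log2 scale (95% interval -0.80 to -0.38; edgeR adjusted p = 0.0203). Only 6 of the 62 called genes had a smaller absolute log2 fold change, and 7 of them were more abundant. The difference was -0.57 within the higher pancreas set (2 WT, 3 Blimp1-flox) and -0.76 within the lower set (2 WT, 1 Blimp1-flox). Leaving out WT 2 ended the call (adjusted p = 0.0864), as did leaving out Blimp1-flox 1 (0.0683) or Blimp1-flox 4 (0.10), and the log2 fold change ran from -0.65 to -0.53 with 1 library left out. B cells also carry this receptor. WT 4, with the most B cell transcript, was at 131 CPM of Il4ra, close to WT 1 and WT 3 at 132 CPM. A B cell score, the mean log2 CPM of the B cell markers, was 3.01, 3.02, 4.05 and 5.87 in WT 1 to 4. It was lower in every Blimp1-flox library, at 0.996 to 2.28, with or without WT 4 in the comparison. The part of B cells in the Il4ra difference was not tested. Without WT 4 the log2 fold change was -0.61 (adjusted p = 0.025). With a B cell score in the model, which shares 62.8% of its variance with genotype, it was -0.619 and the call was lost (adjusted p = 0.789). Without Blimp1-flox 1 and 4, an alternative added after the data were seen, it was -0.49 (adjusted p = 0.369).

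EdgeR did not call the partner chains and kinases of the IL-4 receptor. Il2rg, the common gamma chain that pairs with Il4ra in T cells, was at 1490 ± 121 CPM in WT and 1380 ± 84.4 CPM in Blimp1-flox cells (SD, n = 4; edgeR adjusted p = 0.549). Il13ra1, which pairs with Il4ra mainly outside the T lineage, was at 38.8 ± 21.4 and 49.8 ± 22.9 CPM (adjusted p = 0.817). The kinases that dock on these chains were at 1360 ± 110 and 1240 ± 176 CPM for Jak1 and at 509 ± 51.7 and 478 ± 47.9 CPM for Jak3 (adjusted p = 0.589 and 0.703). Irs2, an adaptor that IL-4 engages beside STAT6, was at 156 ± 44.2 CPM in WT and 85.1 ± 28.5 CPM in Blimp1-flox cells, with overlapping libraries and an adjusted p of 0.187. Socs1, a feedback inhibitor of JAK kinases, was at 59.6 ± 11.1 and 61.7 ± 5.92 CPM (adjusted p = 0.888).

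Of the 15 tested genes in the IL-4 signalling list, edgeR called 0, with 4 at an unadjusted p under 0.05, as were 16.2% of all tested genes. DESeq2 called 1 of the 15, Cish, and limma-voom called 3, Cish, Irs2 and Tyk2, where these tools called 3.66% and 4.09% of all tested genes. Tyk2, a JAK kinase gene, was at 290 ± 21.8 CPM in WT and 236 ± 28.5 CPM in Blimp1-flox cells (edgeR adjusted p = 0.197). Cish, a STAT5-induced inhibitor of cytokine receptors named here after its values were seen, was at 108 to 181 CPM in WT and 44.7 to 92.9 CPM in Blimp1-flox libraries (edgeR adjusted p = 0.082). The list's median log2 fold change was -0.091. In the cytokine receptor list, edgeR called 0 of 11, with 2 at an unadjusted p under 0.05, and DESeq2 and limma-voom each called Il21r. Il21r, the IL-21 receptor, was at 616, 683, 669 and 683 CPM in WT and at 601, 548, 460 and 522 CPM in Blimp1-flox libraries (edgeR adjusted p = 0.167). Its libraries did not overlap, but the highest Blimp1-flox library lay just under the lowest WT library. Cd40, the receptor of CD40 ligand on B cells, was at 4.49 ± 3.58 and 1.66 ± 0.561 CPM (adjusted p = 0.200), and its WT level was highest in WT 4, the library with the most B cell transcript. Il1rl1, the IL-33 receptor, was at 1.79 ± 1.62 and 0.865 ± 0.209 CPM (adjusted p = 0.456).

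**Figure D2:**
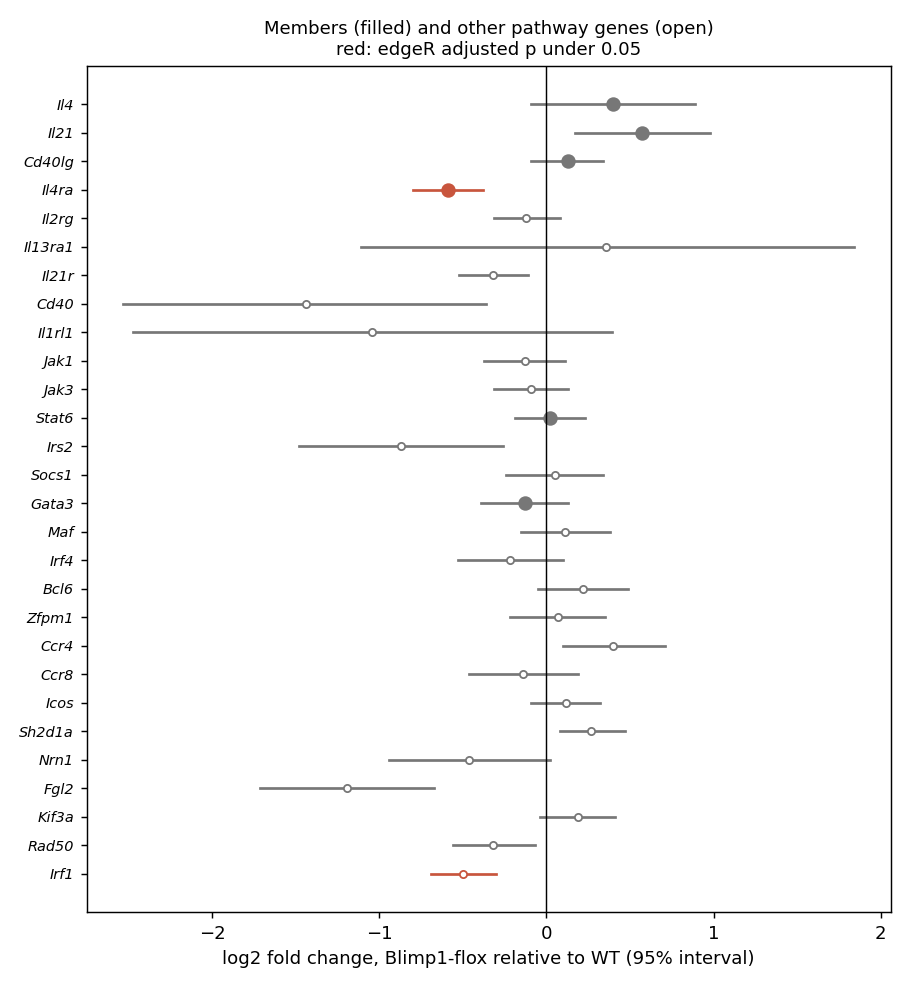
Log2 fold change, Blimp1-flox relative to WT, with its 95% interval (horizontal axis) for the 6 tested members (filled points) and the named genes of the pathway lists (open points); red marks an edgeR adjusted p under 0.05. Il4ra (-0.59) and Irf1 (-0.50) are red, and Il13ra1, Il1rl1 and Cd40 have the widest intervals.

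Il4, the defining type 2 cytokine gene, was detected in every library. It held 16.5, 25.1, 18.2 and 30.2 CPM in WT 1 to 4 and 36.3, 22.2, 23.1 and 37.5 CPM in Blimp1-flox 1 to 4, from 4864 counts in all. The groups overlapped, with Blimp1-flox 1 and 4 highest and Blimp1-flox 2 and 3 inside the WT range. The mean was 22.5 ± 6.33 CPM in WT and 29.8 ± 8.23 CPM in Blimp1-flox cells (SD, n = 4), a log2 fold change of 0.40 ± 0.23 (SE; 95% interval -0.09 to 0.89; edgeR adjusted p = 0.403). DESeq2 gave 0.406 (adjusted p = 0.339) and limma-voom 0.67 (adjusted p = 0.0793), so neither called Il4. Blimp1-flox 1 and 4 also held the highest summed levels of eosinophil and of mast cell and basophil markers, cells known to make IL-4. The 6 eosinophil markers summed to 12.7 CPM in Blimp1-flox 1 and 140 CPM in Blimp1-flox 4, against 0.18 and 4.95 CPM in Blimp1-flox 3 and 2 and 1.67 to 4.88 CPM in WT libraries. Prg2 (91.6 CPM) and Epx (42.5 CPM) made most of the eosinophil sum in Blimp1-flox 4, where Ear2 (4.13 CPM) was also highest. Il5ra was highest in WT 4 (3.21 CPM), Ccr3 was highest in Blimp1-flox 2 (1.21 CPM), and Siglecf reached at most 0.128 CPM. The 10 mast cell and basophil markers summed to 12.1 and 12.7 CPM in Blimp1-flox 1 and 4, and to 5.22 to 7.69 CPM in the other 6. Most of the second sum came from Hdc and Kit, and Hdc in Blimp1-flox 4 (3.66 CPM) was the lowest of the 8 libraries. Of the basophil proteases, Prss34 had counts in Blimp1-flox 4 alone (2.77 CPM), and Mcpt8 was at 0.937 CPM there, at 0.0416 CPM in Blimp1-flox 2 and at 0 elsewhere. The pattern was not particular to these cells. The 12 myeloid and dendritic markers also summed highest in Blimp1-flox 1 and 4, at 216 and 188 CPM against 85.9 to 135 CPM in the others. The part of these cells in the Il4 level was not tested. Blimp1-flox 1 and 4 are also the 2 libraries with the most Il4, so the log2 fold change without them (0.0113, edgeR adjusted p = 0.998) had to be smaller and says nothing of the source. Within the pancreas sets the difference was -0.05 in the higher (2 WT, 3 Blimp1-flox) and 1.11 in the lower (2 WT, 1 Blimp1-flox). The 1 Blimp1-flox library of the lower set was Blimp1-flox 4, which had the most Il4.

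**Figure D3:**
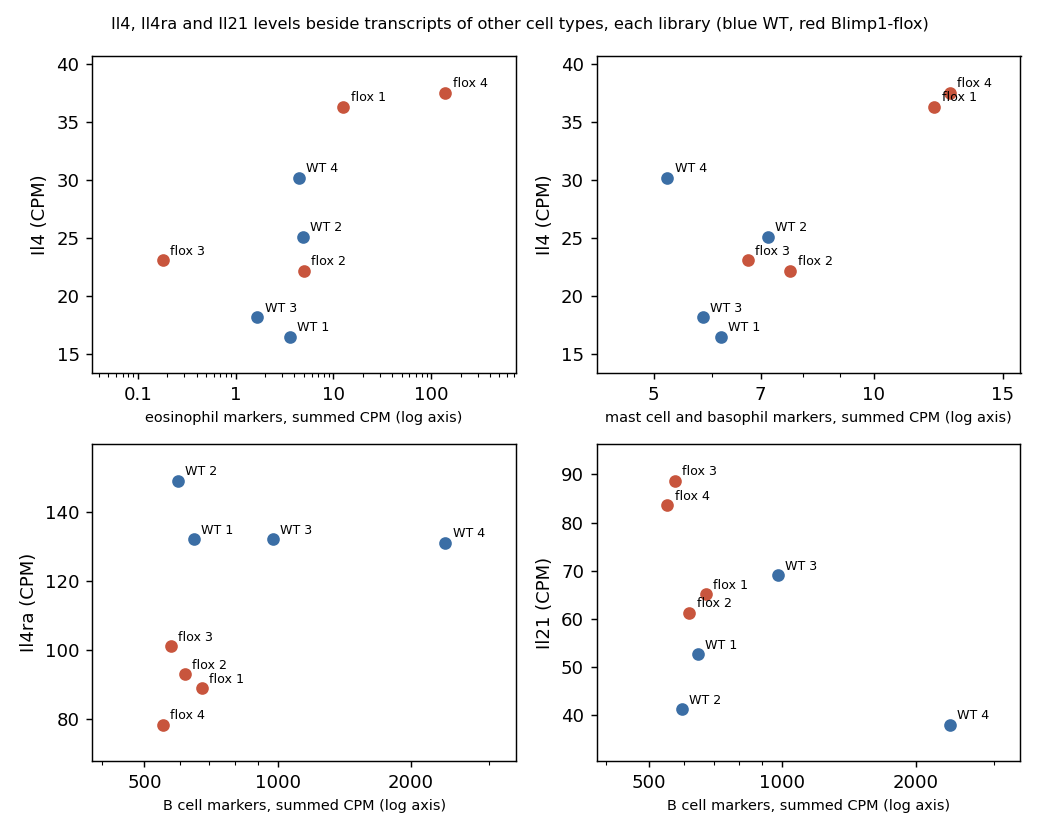
Il4, Il4ra and Il21 levels (vertical axes, TMM-scaled CPM) against the summed CPM of marker lists of other cell types (horizontal log axes), with each point 1 library, blue for WT and red for Blimp1-flox. Blimp1-flox 1 and 4 stand highest for Il4 and for both eosinophil and mast cell and basophil markers, and WT 4 stands apart in B cell markers.

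The other type 2 cytokine genes were close to silent. Il13, which shares the receptor chain Il4ra with IL-4, held 0, 9, 4 and 8 counts in WT 1 to 4 and 6, 7, 8 and 8 counts in Blimp1-flox 1 to 4. The pooled level was 1.47 times as high in Blimp1-flox as in WT libraries, with a 95% counting interval of 0.808 to 2.71 that includes no difference and covers counting error only. Il5, the eosinophil growth factor gene, held 5 counts in WT, all in WT 2, and 2 counts in Blimp1-flox libraries (ratio 0.425, interval 0.0405 to 2.60). Il9, a mast cell growth factor gene, had 0 counts in every library, which allows up to 0.0159 CPM over all 8 libraries pooled, by a limit of 3 counts.

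These low levels stood beside an active Il4 gene. Il4 and Il13 lie 12.7 kb apart on chromosome 11, from 53612461 to 53618665 and from 53631323 to 53634702 in mm10, and Il5 follows beyond Rad50, from 53720794 to 53725103. Per kilobase of exon, the Il4 level over all libraries was 139 times that of Il13 and 1260 times that of Il5. Kif3a, a kinesin gene next to Il4, was at 5.99 ± 0.447 CPM per kb in WT and 6.82 ± 0.340 CPM per kb in Blimp1-flox cells (SD, n = 4; edgeR adjusted p = 0.390). Rad50, the DNA repair gene that holds the locus control region of the type 2 cytokines, was at 15.1 ± 1.99 and 12.1 ± 1.01 CPM per kb (adjusted p = 0.209).

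Irf1, an interferon-response factor gene at the far end of the locus, was the only gene called among the 96 tested in the pathway lists. WT libraries stood at 622, 625, 614 and 627 CPM of Irf1, and Blimp1-flox libraries at 414, 434, 509 and 408 CPM. The WT libraries were nearly equal, and every Blimp1-flox library lay below them. Irf1 fell by 0.50 ± 0.09 (SE) on the log2 scale (edgeR adjusted p = 0.0339). Within the pancreas sets the difference was -0.47 in the higher (2 WT, 3 Blimp1-flox) and -0.60 in the lower (2 WT, 1 Blimp1-flox). Leaving out WT 2 ended the call (adjusted p = 0.106), as did leaving out WT 3 (0.0834), Blimp1-flox 1 (0.109), Blimp1-flox 2 (0.0731) or Blimp1-flox 4 (0.17), and so did a replicate block (0.0657). The call was also lost with the B cell score and without Blimp1-flox 1 and 4, so it was lost in 8 of the 21 alternatives.

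**Figure D4:**
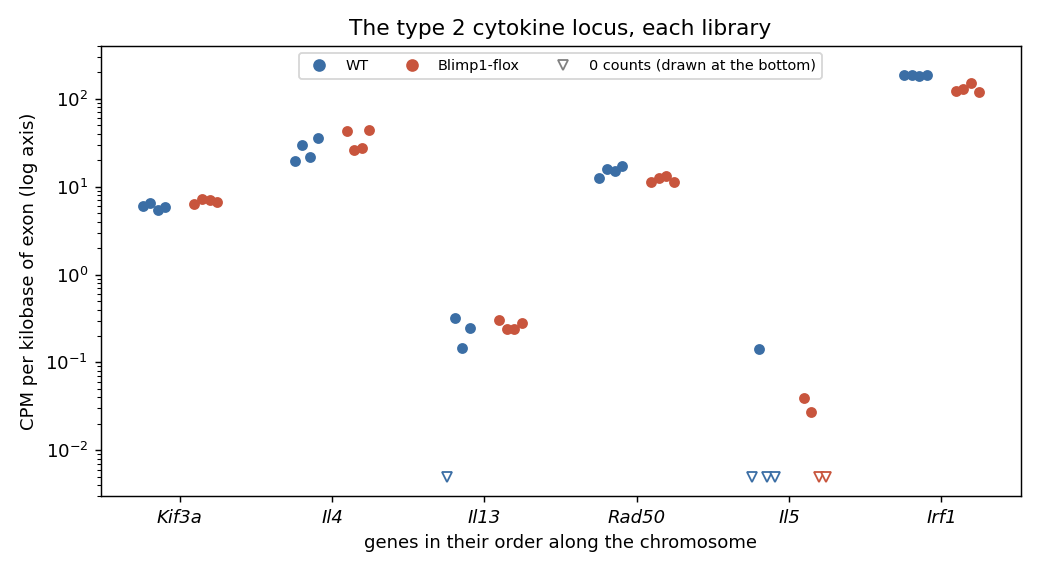
Level per kilobase of exon (vertical log axis, CPM per kb) of the genes of the type 2 cytokine locus in chromosome order, with each point 1 library, blue for WT, red for Blimp1-flox, and open triangles for libraries with 0 counts. Il4 lies near 31.0 CPM per kb beside Il13 and Il5, which lie under 0.5, and Irf1 is lower in every Blimp1-flox library.

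Of the 8 ligand genes in the list of further type 2 effectors, 1 passed the filter. That gene, Areg, encodes the tissue repair factor amphiregulin and is named because it was the only one tested. It was at 65.8, 49.2, 50.4 and 46.5 CPM in WT and at 38.1, 44.2, 44.0 and 34.9 CPM in Blimp1-flox libraries. The groups did not overlap, but edgeR did not call the gene (log2 fold change -0.39 ± 0.13 SE, adjusted p = 0.184), nor did DESeq2, whereas limma-voom did.

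Il21, the cytokine gene of follicular help, had a higher mean in Blimp1-flox cells but did not pass the test over all genes. It held 52.7, 41.3, 69.1 and 38.0 CPM in WT 1 to 4 and 65.1, 61.3, 88.7 and 83.6 CPM in Blimp1-flox 1 to 4. WT 3 lay above Blimp1-flox 1 and 2, so the groups overlapped through that library. The mean was 50.3 ± 14.0 CPM in WT and 74.7 ± 13.5 CPM in Blimp1-flox cells (SD, n = 4), and the log2 fold change was 0.57 ± 0.19 (SE; 95% interval 0.17 to 0.98; edgeR unadjusted p = 0.00923, adjusted p = 0.184). Within the pancreas sets it was 0.84 in the higher (2 WT, 3 Blimp1-flox) and 0.47 in the lower (2 WT, 1 Blimp1-flox). With the set as a term in the model the adjusted p was 0.0339. With Blimp1-flox 1 placed in the lower set, an alternative added after the data were seen, the adjusted p was 0.0838. The lowest level was in WT 4, the library with the most B cell transcript. With the B cell score in the model the log2 fold change was 0.227 ± 0.30 (SE; adjusted p = 0.96), and without WT 4 and Blimp1-flox 3 it was 0.364 (adjusted p = 0.366). DESeq2 gave 0.575 (adjusted p = 0.0567) and limma-voom 0.49 (adjusted p = 0.107), so neither called Il21.

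Il21 lies on chromosome 3 from 37222759 to 37232636 in mm10. Per kilobase of exon, Il21 was below Il4ra in 4 of 4 WT libraries, at ratios of 0.640, 0.446, 0.838 and 0.464, and above it in 4 of 4 Blimp1-flox libraries, at 1.18, 1.06, 1.41 and 1.71. This ratio was singled out after its values were seen, and it contains the called gene. The ratio of Il21 to Il4 per kilobase overlapped, at 0.334 to 1.01 in WT and 0.477 to 1.02 in Blimp1-flox libraries.

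Cd40lg encodes CD40 ligand, the contact signal that activates B cells, and lies on chromosome X from 57212143 to 57224042. Its levels were 91.9, 111, 104 and 107 CPM in WT libraries, against 97.4, 116, 114 and 123 CPM in Blimp1-flox libraries. The groups overlapped closely, with a log2 fold change of 0.13 ± 0.10 (SE; 95% interval -0.09 to 0.34; edgeR adjusted p = 0.554). Its means were 103 ± 8.08 and 113 ± 10.8 CPM (SD, n = 4). In the CD40 ligand signalling list, which holds TRAF adaptors and the alternative NF-kB pathway, edgeR called 0 of 8. At an unadjusted p under 0.05 there was 1, where 16.2% of all tested genes were. DESeq2 and limma-voom each called Traf1, where they called 3.66% and 4.09% of all tested genes. Traf1 was lower, at 435 ± 33.8 CPM in WT and 336 ± 15.3 CPM in Blimp1-flox cells (SD, n = 4; edgeR adjusted p = 0.0845). The list's median log2 fold change was -0.11.

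The B cell help list had 22 tested genes, of which edgeR called 0, with a median log2 fold change of 0.11. At an unadjusted p under 0.05 there were 8, where 16.2% of all tested genes were. DESeq2 and limma-voom each called 2 of the 22, Fgl2 (lower) and Slamf6 (higher), where they called 3.66% and 4.09% of all tested genes. Slamf6 was at 450 ± 37.7 CPM in WT and 558 ± 42.8 CPM in Blimp1-flox cells (SD, n = 4; edgeR adjusted p = 0.163). In 4 of the 22 the Blimp1-flox libraries all lay above the WT libraries, and in 1 all lay below, where 3.75% and 4.72% of all tested genes did so. Sh2d1a, the adaptor SAP that T cells need for contact with B cells, was at 412, 398, 420 and 375 CPM in WT and at 543, 436, 474 and 488 CPM in Blimp1-flox libraries. Its libraries did not overlap, and its log2 fold change was 0.27 ± 0.09 (SE; edgeR adjusted p = 0.186). Icos, the costimulator of follicular T cells, was at 487 ± 38.5 and 528 ± 47.4 CPM (SD, n = 4; adjusted p = 0.573).

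Fgl2 encodes a secreted suppressor made by regulatory T cells. It was at 5.09, 9.89, 8.69 and 7.50 CPM in WT and at 2.92, 3.28, 3.92 and 3.49 CPM in Blimp1-flox libraries. Its groups did not overlap, and its log2 fold change of -1.19 ± 0.24 (SE) narrowly missed the threshold (edgeR adjusted p = 0.0521). Nrn1, neuritin, a secreted product of follicular regulatory T cells that acts on B cells, was at 28.2 ± 8.49 and 20.5 ± 4.77 CPM (adjusted p = 0.331).

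Stat6 and Gata3, the factors downstream of the IL-4 receptor, were the most abundant members and did not pass the test. Stat6 was measured at 505, 500, 503 and 455 CPM in WT 1 to 4, against 475, 569, 429 and 515 CPM in Blimp1-flox 1 to 4. The Blimp1-flox libraries spread to both sides of the WT libraries, and the log2 fold change was 0.02 ± 0.10 (SE; 95% interval -0.19 to 0.23; edgeR adjusted p = 0.946), with a sign that turned when WT 4 (-0.0167) or Blimp1-flox 2 (-0.0564) was left out. Stat6 lies on chromosome 10 from 127642986 to 127660987, and 70 of its exon bases overlap Nab2 on the other strand, so some reads there may be unassigned or shared. Gata3 was measured at 351, 363, 260 and 389 CPM in WT 1 to 4, against 278, 335, 324 and 309 CPM in Blimp1-flox 1 to 4. WT 3 was the lowest of all 8 and the other WT libraries were the highest 3. The log2 fold change of Gata3, on chromosome 2 from 9857078 to 9878600, was -0.13 ± 0.12 (SE; 95% interval -0.39 to 0.13; edgeR adjusted p = 0.619), and limma-voom gave 0.0024.

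The list of TH2 regulators had 26 tested genes, of which edgeR called 0, with 5 at an unadjusted p under 0.05, against 16.2% of all tested genes. DESeq2 called 1 of the 26, Tbx21, against 3.66% of all genes, and limma-voom called 4, against 4.09%. Tbx21 was lower, at 19 ± 4.54 CPM in WT and 12 ± 2.49 CPM in Blimp1-flox cells (SD, n = 4; edgeR adjusted p = 0.153). In 4 of the 26 every Blimp1-flox library lay below every WT library, and in 0 above, where 4.72% and 3.75% of all tested genes did so. The list's median log2 fold change was -0.18, with 19 negative and 7 positive. The list holds genes that oppose TH2 cells, such as Tbx21, beside genes that promote them. Its signs therefore give no direction for the TH2 genes as a whole. Maf, which activates Il4 and Il21, was at 145 ± 12.7 CPM in WT and 157 ± 28.2 CPM in Blimp1-flox cells (SD, n = 4; edgeR adjusted p = 0.682). Irf4, needed for both TH2 and follicular T cells, was at 49.2 ± 8.62 and 42.3 ± 6.95 CPM (adjusted p = 0.490). Bcl6, the follicular factor that opposes Blimp1, was at 300 ± 40.7 and 349 ± 54.8 CPM (adjusted p = 0.411), and Zfpm1, a GATA3 cofactor, at 199 ± 37.5 and 209 ± 24.2 CPM (adjusted p = 0.839).

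In the list of TH2 surface markers, edgeR called 0 of 6, with 2 at an unadjusted p under 0.05, against 16.2% of all tested genes. DESeq2 called 0, against 3.66% of all tested genes, and limma-voom 1, Ccr4, against 4.09%. Ccr4, a chemokine receptor of TH2 and regulatory T cells, was at 48.4, 55.3, 48.5 and 52.9 CPM in WT and at 73.8, 59.1, 52.5 and 85.8 CPM in Blimp1-flox libraries (edgeR adjusted p = 0.204). Its highest levels were in Blimp1-flox 1 and 4, as for Il4. Ccr8, a receptor of the same cells, was at 209 ± 31.3 and 190 ± 40.4 CPM (SD, n = 4; adjusted p = 0.684).

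On the scale of CPM per kilobase of exon, which allows genes to be compared, the WT order was Stat6 (129 ± 6.29), Gata3 (106 ± 17.4), Cd40lg (82.6 ± 6.46), Il4 (26.7 ± 7.51) and Il4ra (26.7 ± 1.66), then Il21 (15.8 ± 4.41; SD, n = 4). In Blimp1-flox cells it was Stat6 (131 ± 15.7), Gata3 (96.8 ± 7.67), Cd40lg (90.1 ± 8.62), Il4 (35.3 ± 9.77), Il21 (23.5 ± 4.24) and Il4ra (17.7 ± 1.84). Stat6 was above Cd40lg in 8 of 8 libraries, above Gata3 in 7 and Gata3 above Cd40lg in 6, so the neighbours at the top of the order were not separated in every library. Il4 and Il4ra had the same mean level in WT cells. Il13 followed far below, at 0.179 ± 0.140 and 0.266 ± 0.0315 CPM per kb.

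Correlations between the members were of both signs. Over the 8 libraries, which share the 2 genotypes and their sequencing, Pearson r of log2 CPM was 0.08 between Il4 and Il21, -0.59 between Il4 and Il4ra, -0.71 between Il21 and Il4ra, and -0.68 between Il21 and Gata3. Among 9139 genes with a mean log2 CPM of at least 3, the 3 whose pattern was most like that of Il4ra were Map3k1 (r = 0.974), Irf1 (0.972) and Il10 (0.968). Those most like Il21 were Slc25a13 (0.972), Smim10l1 (0.971) and Slc25a16 (0.966), and those most like Il4 were Ptrh2 (0.962), Scly (0.937) and Acsbg1 (0.936). For Cd40lg they were Rp2h (0.941), Cog6 (0.933) and Acss2 (0.920), for Stat6 Fam102a (0.975), Cers4 (0.959) and Fgd6 (0.956), and for Gata3 Hspd1 (0.936), Fbxw7 (0.935) and Trio (0.921).

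**Figure D5:**
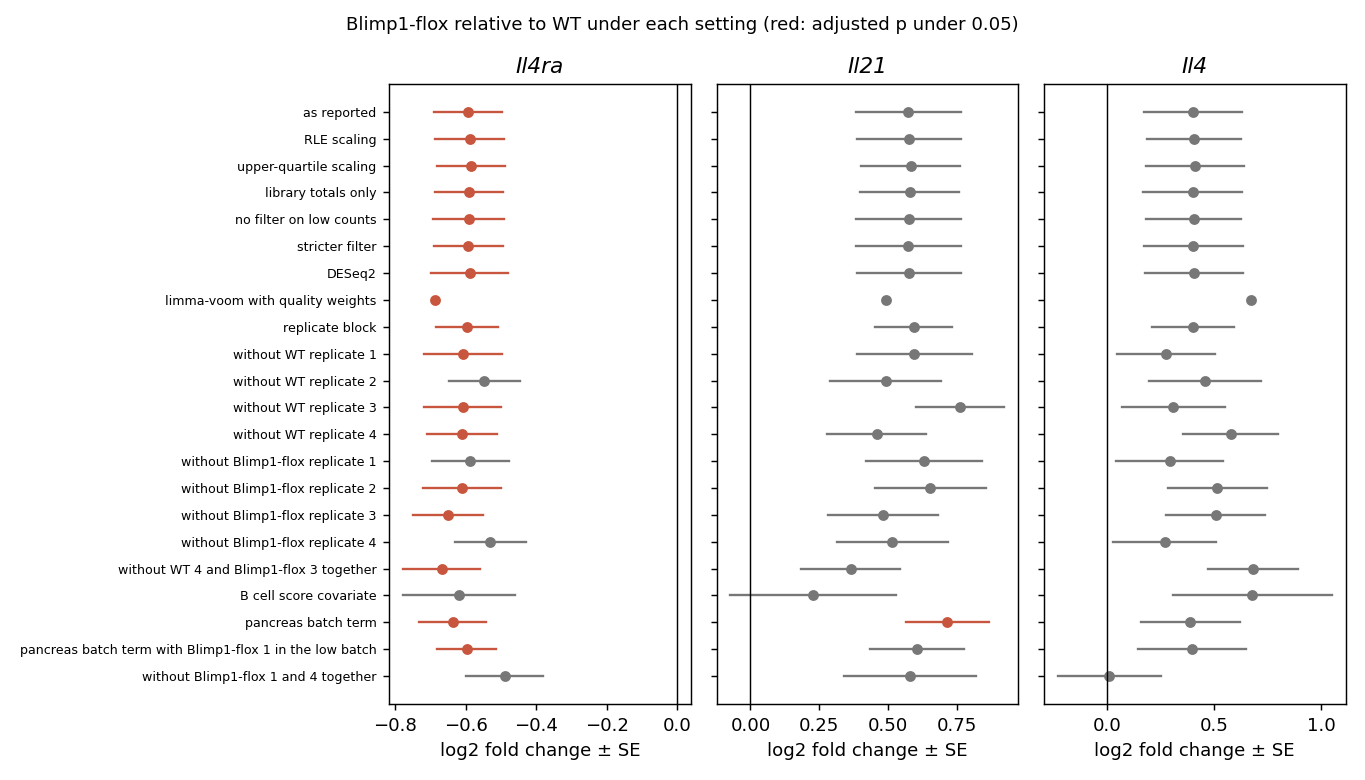
Log2 fold change, Blimp1-flox relative to WT, of Il4ra, Il21 and Il4 (horizontal axes, bars for the SE, not drawn for limma-voom) under each processing setting (vertical axis); red marks an adjusted p under 0.05 under that setting. Il4ra stayed between -0.689 and -0.49 under all 21 alternatives, and Il21 between 0.227 and 0.761.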

How the data were processed

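Poly(A) RNA-seq libraries of sorted splenic TFR cells, 4 WT and 4 Blimp1-flox, were compared. Libraries were prepared with a KAPA mRNA HyperPrep kit, per the labels' protocols. Per the submitters' processing notes, the tools were STAR 2.5.2b and featureCounts (Subread 1.5.1) and the build mm10. The authors deposited unnormalized counts for each gene, and the other deposited measure, exon length in bases, was used to set levels per kilobase. The strand setting of the counting and the gene annotation are not given in the sources used here.

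Genes were filtered with filterByExpr (minimum count 10, minimum total 15), scaled by TMM (factors 0.976 to 1.02) and tested with edgeR 4.0.16 in R 4.3.3 (quasi-likelihood F test, robust, genotype alone). The biological coefficient of variation was 0.192. Every adjusted p is from this test, adjusted over 12363 genes, unless another tool or alternative is named. Alternatives were adjusted over the genes they tested. These were 17574 without a filter, 12501 to 12557 with 1 library left out and 12765 without Blimp1-flox 1 and 4. Standard errors came from the F statistic. Counts of 0 were read with a limit of 3 counts, and ratios of pooled counts have exact 95% binomial intervals, for counting error only. Log2 CPM for patterns used a prior count of 2. The fit was also run on simulated counts with 200 genes changed. Its recovery rates are not given here, so that run does not show how often differences of the size reported here are missed.

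The members and the pathway lists were chosen with earlier results of these data known. The text names all 9 members, Prdm1, a fixed set of pathway genes whatever their result, any other pathway gene called, and the 3 genes most like each tested member. Areg, Cish, Tyk2, Slamf6, Traf1 and Tbx21 were named after their values were seen. Riox2, listed among the TH2 regulators, has no row under that symbol. Alternatives were other scalings and filters, DESeq2 1.42.0, voom of limma 3.58.1, a replicate block, libraries left out, a B cell score, a term for pancreas transcripts and a threshold of 0.1.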

Additional observations from a re-analysis of the deposited data

Results flagged for a closer look

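Il4ra in WT 2 stood apart from the other WT libraries, at 149 CPM against 131 to 132 CPM, so that the gap to its nearest neighbour was 0.939 of the group's range. Stat6 in WT 4 stood below the other WT libraries, at 455 CPM against 500 to 505 CPM, a gap of 0.909 of the range. Both gaps exceed Dixon's 95% critical value for 4 samples. These were 2 of 60 groups examined over 32 genes, and chance alone sets about 1 in 20 groups past that value.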

How the results depend on the processing

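The number of genes called was 62, and it was 453 with DESeq2 (61 of the 62 kept), 506 with limma-voom (62 kept), 20 to 127 with 1 library left out, 157 without WT 4 and Blimp1-flox 3, 342 with a pancreas term and 182 at an adjusted p under 0.1. With a B cell score in the model it was 1, with 633 genes at an unadjusted p under 0.05, and that score shares 62.8% of its variance with genotype. Alternatives chosen after the data were seen gave 391 (pancreas term with Blimp1-flox 1 in the lower set) and 5 (without Blimp1-flox 1 and 4). Members called were 1 as reported, 0 to 1 with 1 library left out, 2 with the pancreas term (Il4ra and Il21, the latter at 0.714), and 0 with the B cell score (1 at an unadjusted p under 0.05) or without Blimp1-flox 1 and 4 (2 unadjusted). Pathway genes called were 1 as reported, 2 without a filter, 7 with DESeq2, 14 with limma-voom, 0 to 2 with 1 library left out, 4 without WT 4 and Blimp1-flox 3, 7 and 5 with the pancreas terms, 4 at the 0.1 threshold, and 0 with the B cell score or without Blimp1-flox 1 and 4. Il4ra kept its direction under all 21 alternatives and lost its call in 5: with 3 libraries left out in turn, with the B cell score (-0.619, adjusted p = 0.789) and without Blimp1-flox 1 and 4 (-0.49, adjusted p = 0.369). Leaving out 1 library gave -0.65 to -0.53 for Il4ra, 0.27 to 0.577 for Il4, 0.458 to 0.761 for Il21, 0.0734 to 0.188 for Cd40lg, -0.244 to -0.0614 for Gata3 and -0.0564 to 0.0837 for Stat6. Signs turned for Stat6 with the B cell score (-0.0378) and for Gata3 with limma-voom (0.0024). With the B cell score they also turned for Il2rg (0.0324), Il13ra1 (-0.923), Cd40 (0.649), Il1rl1 (0.329), Socs1 (-0.129), Zfpm1 (-0.211) and Nrn1 (0.123), all uncalled. Other turns of uncalled genes were Socs1 with limma-voom (-0.0197), without WT 4 and Blimp1-flox 3 (-3e-04) and with 1 library left out (-0.0442 to 0.148), Maf without Blimp1-flox 1 and 4 (-0.0379) and with 1 library left out (-0.0109 to 0.194), and Zfpm1 without WT 4 and Blimp1-flox 3 (-0.0098) and with 1 library left out (-0.0346 to 0.179). The cause was not tested. Fgl2 passed in 7 of the 21 alternatives. Among them were no filter (adjusted p = 0.0344), DESeq2 (0.000654), limma-voom (0.0155) and 1 fit with 1 library left out (0.0235). The groups share replicate numbers, but same-numbered libraries deviated together with correlations of 0.10, 0.15, -0.10 and -0.11, so the numbers were not taken to pair them. A replicate block called 52 genes, 37 of the 62 among them, 1 member and 0 pathway genes. Il13, Il5 and Il9, with at most 9 counts in a library, allow only pooled ratios with wide intervals or an upper limit.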
